A study of Mus musculus with 23 samples.

Results

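The genes described here encode the receptors for interleukin-7 and interleukin-2 and the proteins that carry their signal: the receptor chains Il7r, Il2ra, Il2rb and Il2rg, the kinases Jak1 and Jak3, the transcription factors Stat5a and Stat5b, and the feedback inhibitors Cish and Socs1. They were taken by gene symbol from a table of 24475 genes, and all 10 were found in 1 row each. RNA was sequenced from 23 mice, 1 library per mouse. Thymus of normal C57BL/6 mice gave 6 control libraries. Spleens with T-cell acute lymphoblastic leukemia (T-ALL) gave 17 libraries, all from BALB/c Rag2-/-Il2rg-/- hosts that had received a newborn thymus, which was wild type in 14 (WT T-ALL) and Notch3 knockout in 3 (Notch3 KO T-ALL). According to the methods of the study, wild-type thymus came from B6.Ly5.1 mice, congenic on C57BL/6, and the Notch3 knockout allele carries β-galactosidase in the first coding exon. The study describes its exome samples as spleen cells without fractionation, and whether leukemic cells were enriched before RNA extraction is not given in the sources used here. The labels give no ages. By the methods the hosts were young adults when the thymus was grafted, and they were older by the time leukemia had developed. Each tumor is named by the number in its label. Tissue, host strain and disease part with the groups and cannot be told apart, and in such bulk samples fewer cells of a type and less RNA per cell cannot be told apart either.

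Interleukin-7 binds a receptor made of Il7r and the common gamma chain Il2rg. Interleukin-2 binds Il2rb and Il2rg, with Il2ra raising the affinity. Jak1 and Jak3 sit on the receptor tails and phosphorylate STAT5, which moves to the nucleus, and Cish and Socs1 are induced by the signal and restrain it. Interleukin-7 is required by early thymocytes, Il2ra marks a stage of immature double-negative thymocytes, and gain-of-function mutations of this pathway are known in human T-ALL. Mice without Il2rg lack signaling by every receptor that uses this chain, so host lymphoid progenitors cannot respond, whereas cells of the transplanted thymus can.

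Cish and Il7r are the members whose promoter window holds the motif that STAT5 dimers bind, TTCNNNGAA, which reads the same on both strands. Windows from 250 bases before to 50 bases after a transcript start (RefSeq, GRCm38.p6) were given for 9 of the 10 members, in 11 windows, and 2 members held the motif. Of 32851 such windows of all genes, 8.30% held at least 1 motif and 0.457% held at least 2. The stretches are shown because they set the members' sequence beside the levels given below, with motif bases in capitals. The Cish stretch, at chr9:107296654-107296683 on the plus strand, holds 2 motifs that begin at bases 1 and 12 of the transcript. The Il7r stretch, at chr15:9529999-9530028 on the minus strand, holds 1 motif that begins 142 bases before the transcript start used for its window.
Cish: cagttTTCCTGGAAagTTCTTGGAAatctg
Il7r: gttcaggagcTTCAGGGAAtaccaagatgc
A match of letters is a description and no evidence of binding.

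The deposited values are log2(scaled RPKM + 1), where RPKM is a read number normalized for transcript length and library size, scaled by the authors to a common 75th percentile, and every level below is on this log2 scale unless scaled RPKM is named. The offset of 1 is part of the values, so a difference is smaller than the true fold change where levels are low. No counts are in the table, and the methods state only an approximate depth common to all libraries, not that of each one. Notch3 was listed at 3.22, 2.59 and 3.74 in the Notch3 KO T-ALL libraries, at 2.62 to 4.29 in thymus and at 3.17 to 5.78 in WT T-ALL, and a level over the whole gene cannot show the insertion. The median correlation of a library with its own group was 0.968 to 0.983 for thymus, 0.880 to 0.945 for WT T-ALL and 0.919 to 0.941 for Notch3 KO T-ALL, and WT T-ALL 110 had the lowest. The mean level of 6 T cell markers was 8.04 to 8.31 for thymus, 6.76 to 8.08 for WT T-ALL and 6.85 to 7.53 for Notch3 KO T-ALL. The B cell genes Ms4a1, Pax5 and Ebf1 were under 0.1 in every T-ALL library. The hosts lack Rag2 and Il2rg, so a normal spleen is no reference for this, and no host spleen without leukemia is among the libraries. The mean of 5 thymic epithelium markers was 0.529 to 0.828 for thymus, with Foxn1, which defines that tissue, under 0.1 and Epcam at 2.16 to 2.43. Other cells also differed: the mean of 6 erythroid markers was 0.318 to 0.668 for thymus, 2.77 to 6.39 for WT T-ALL and 5.52 to 7.49 for Notch3 KO T-ALL, and that of 7 neutrophil markers was 2.33 to 4.38, 5.15 to 11.9 and 3.59 to 8.54. All 6 erythroid markers were higher in both T-ALL groups than in thymus. The mean of 6 double-positive thymocyte markers was 8.47 to 8.95 for thymus, 4.17 to 6.71 for WT T-ALL and 4.79 to 7.22 for Notch3 KO T-ALL, and all 6 were lower in both T-ALL groups. That of 4 mature single-positive T cell markers was 4.16 to 5.24, 2.68 to 5.05 and 2.52 to 3.40. The part of these cell types in the differences with thymus was not tested beyond the fits given below.

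In WT T-ALL, 4 of the 10 genes were lower than in thymus and none was higher: the feedback inhibitor Socs1, the transcription factor Stat5b, the common chain Il2rg and the kinase Jak1. The fit of all genes (limma, Benjamini-Hochberg adjusted p under 0.05, 11919 genes tested) called 51.6% of genes, 22.3% as lower and 29.3% as higher. The share called in either direction among the 10 was thus no larger than the background. The 4 of 10 called lower stood against 22.3% of all genes, and no test of the set was run. The median difference of the 10 genes was -0.39, against 0.08 over all genes tested. In Notch3 KO T-ALL 4 genes were also lower than in thymus and none higher, namely Socs1, Il7r, Stat5b and Il2rg. There 37.5% of all genes were called and 16.3% were called lower and 21.2% higher, so the share called in either direction among the 10 was again close to the background. The 4 of 10 called lower stood against 16.3% of all genes, again without a test of the set, and the median difference was -0.71 against 0.08. Both comparisons share the thymus libraries. Between Notch3 KO T-ALL and WT T-ALL 0 of the 10 genes were called by limma, 2 had an unadjusted p under 0.05 (Il7r and Il2ra), as had 994 of all 11677 genes tested, and the exact permutation test gave an unadjusted p under 0.05 for Il2ra alone. Adjusted calls there made up 0.617% of all genes, with 0.591% higher and 0.0257% lower, and 0.437% had no overlap between the groups.

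**Figure D1:**
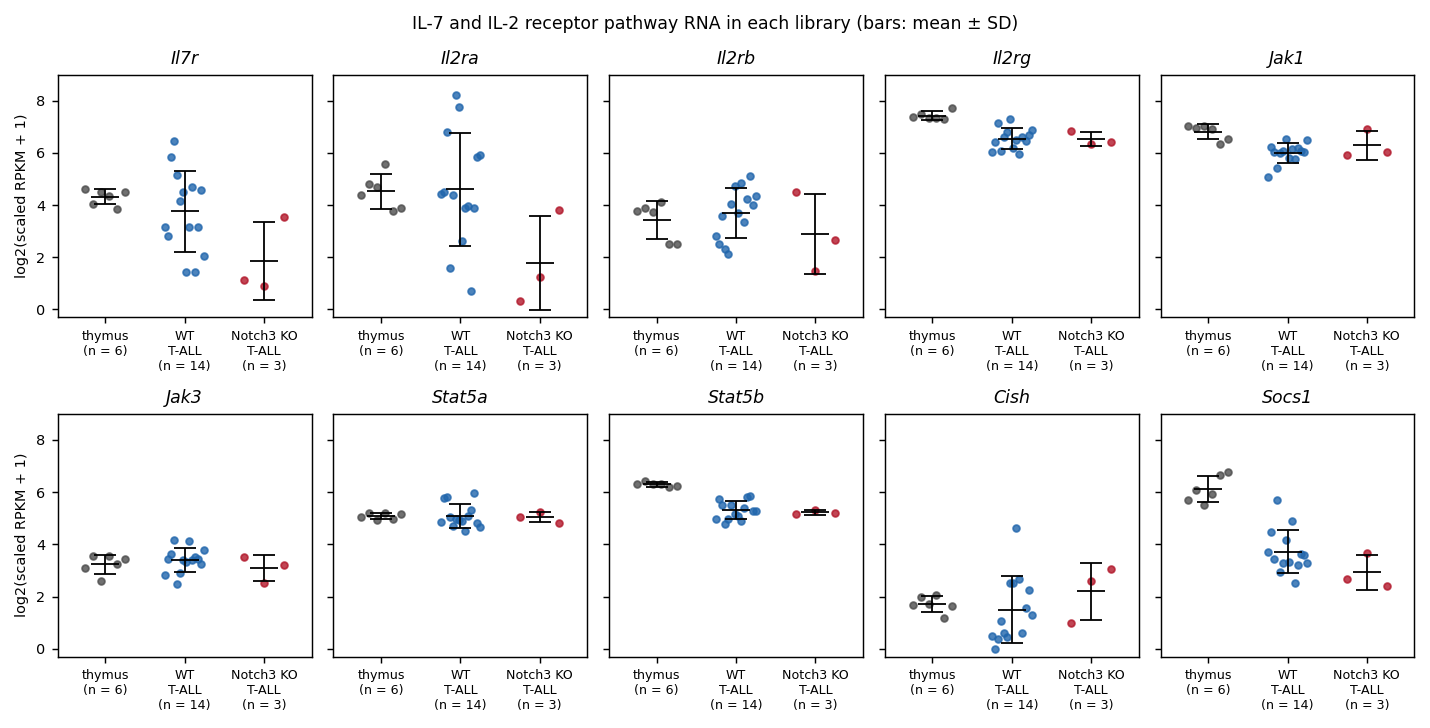
Level of each of the 10 genes in every library, as log2(scaled RPKM + 1) on the vertical axis, in thymus (grey, n = 6), WT T-ALL (blue, n = 14) and Notch3 KO T-ALL (red, n = 3), with bars for the mean ± SD. Stat5b and Il2rg separate thymus from all T-ALL libraries, while Il7r and Il2ra spread over most of the axis in T-ALL.

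The number of calls changed with the setting used for the mixture of cells. With the mean erythroid marker level as a covariate, 0 of the 10 genes were called in either comparison with thymus. The range of that covariate in thymus does not overlap its range in either T-ALL group. It nearly marks the group, so this fit cannot separate cell mixture from group. Under it the WT T-ALL difference was as large or larger for Stat5b (-1.07) and Jak1 (-1.34) and smaller for Il2rg (-0.56) and Socs1 (-1.05), and in Notch3 KO T-ALL it was -1.20 for Stat5b, -0.41 for Il2rg, -1.16 for Socs1 and, with the sign turned, 1.96 for Il7r. After each library was rescaled to its Cd3d, Cd3e and Cd3g level, 3 genes kept their call in WT T-ALL (Jak1 was at -0.70 with a limma adjusted p of 0.0536) and only Socs1 kept it in Notch3 KO T-ALL. The calls lost there were Il7r at -2.24, Stat5b at -0.73 and Il2rg at -0.53, with limma adjusted p-values of 0.0813, 0.14 and 0.24. With the mean neutrophil marker level as a covariate, all 4 genes kept their call in WT T-ALL and 3 of 4 kept it in Notch3 KO T-ALL, where Il7r lost it. The range of this covariate in thymus does not overlap its range in WT T-ALL, so the same limit holds there.

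Il7r, the chain particular to the receptors for interleukin-7 and TSLP, lies at chr15:9506159-9529941 (gene 16197). In thymus its lowest, median and highest levels were 3.86, 4.43 and 4.63. In WT T-ALL they were 1.43, 3.65 and 6.45, with the highest value in tumor 7 and the lowest in tumor 120. Of the 14 tumors, 4 lay above every thymus library (tumors 5, 7, 14 and 111) and 7 lay below every one. In scaled RPKM the extremes were 86.5 and 1.69, against 19.3 ± 3.96 (SD, n = 6) in thymus. The means of WT T-ALL and thymus were 3.75 ± 1.56 (SD, n = 14) and 4.32 ± 0.30 (SD, n = 6), a difference of -0.57 (SE 0.61) with a limma adjusted p of 0.451. In Notch3 KO T-ALL 42.3% of all genes tested did not overlap thymus. For Il7r these libraries were at 1.12, 0.89 and 3.56, all below the lowest thymus library. This difference was -2.46 (95% interval -4.29 to -0.64, limma adjusted p = 0.0318), and it was not called without thymus controls 5 and 6 (-2.53, adjusted p = 0.0604), with neutrophil markers as a covariate (-2.12, adjusted p = 0.118), or without Notch3 KO T-ALL 2 (-1.98, adjusted p = 0.133) or Notch3 KO T-ALL 1 (-2.10, adjusted p = 0.136). Against WT T-ALL the Notch3 KO T-ALL libraries differed by -1.90 (95% interval -3.79 to -2.86e-04, limma adjusted p = 0.587), and 2 of 3 lay below all 14 tumors.

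Il2ra, the chain that raises affinity for interleukin-2, lies at chr2:11642792-11693194 (gene 16184) and varied more among the WT T-ALL than any other gene of the group. The lowest, median and highest Il2ra levels were 3.78, 4.54 and 5.57 in thymus and 0.71, 4.40 and 8.23 in WT T-ALL. Tumors 36 and 48 were highest, at 300 and 214 scaled RPKM, and tumor 120 was lowest, at 0.631. Above every thymus library lay 5 tumors (5, 36, 48, 128 and 202), and below every one lay 3 (7, 108 and 120). The group means were 4.61 ± 2.16 (SD, n = 14) and 4.52 ± 0.66 (SD, n = 6), a difference of 0.09 (SE 0.84, limma adjusted p = 0.937). The Notch3 KO T-ALL libraries were at 0.32, 1.23 and 3.79. Of these, 2 lay below every thymus library, with a difference of -2.74 (SE 1.22, limma adjusted p = 0.0807). Without 1 library it ran from -3.74 to -2.01 and was never called. This difference passed the threshold when the fit held only these groups (adjusted p = 0.00428), with the libraries of shared number alone (-2.85, adjusted p = 0.0288) and with an offset of 0.1 in place of 1 (-3.55, adjusted p = 0.0424). Against WT T-ALL it was -2.83 (95% interval -5.42 to -0.24, limma adjusted p = 0.497), and tumor 120 lay between the knockout libraries. Without 1 library this difference ran from -3.83 to -2.10. Of 5 double-negative thymocyte markers, 2 were higher and 0 lower in each T-ALL group than in thymus. Their mean was 2.47 to 3.41 for thymus, 3.38 to 4.82 for WT T-ALL and 3.44 to 4.74 for Notch3 KO T-ALL. Regulatory T cells also carry Il2ra. Of 4 markers of these cells, 3 were tested, and 1 was higher and 1 lower in WT T-ALL and 1 lower in Notch3 KO T-ALL than in thymus. Their mean level was 2.44 to 2.80 for thymus, 1.74 to 2.99 for WT T-ALL and 1.37 to 2.79 for Notch3 KO T-ALL. Their defining factor Foxp3 was at most 0.241 and 0.0388 in the T-ALL groups, while Ikzf2 had a median of 5.06 in WT T-ALL against 4.23 in thymus. The part of either cell type in the Il2ra levels was not tested.

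Il7r and Il2ra were only weakly related from tumor to tumor. Tumor 7 had the highest Il7r and, at 1.61, one of the lowest Il2ra levels, tumor 202 had low Il7r (2.04) with high Il2ra (5.91), tumor 5 was high in both, and tumor 120 was lowest in both. Over the 14 WT T-ALL the correlation was 0.294 (Pearson; permutation p = 0.305) with a Spearman rho of 0.218 (permutation p = 0.453), and r was 0.488 without tumors 7 and 120.

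Il2rb, the signaling chain shared by the receptors for interleukin-2 and interleukin-15 (gene 16185, chr15:78479256-78511621), did not differ beyond the spread of the libraries. Il2rb had lowest, median and highest levels of 2.49, 3.75 and 4.10 in thymus and of 2.11, 3.84 and 5.13 in WT T-ALL, where tumor 126 was highest and tumor 14 lowest. The Notch3 KO T-ALL libraries were at 4.50, 1.48 and 2.67, with 1 above and 1 below all thymus libraries. The difference between WT T-ALL and thymus was 0.28 (95% interval -0.65 to 1.21), and it became -0.18 without thymus controls 5 and 6, which had the lowest thymus levels. NK cells also carry Il2rb. Of 6 NK cell markers 4 were tested, and 1 was higher and 3 were lower in each T-ALL group than in thymus. Their mean level was 1.69 to 2.25 for thymus, 1.53 to 2.53 for WT T-ALL and 1.43 to 1.95 for Notch3 KO T-ALL. Their summed level, which is weighted to the highest marker Gzma, was 47.4 to 92.7, 371 to 1830 and 245 to 853 scaled RPKM. Gzma was at 8.54 to 10.8 in WT T-ALL against 5.42 to 6.40 in thymus, and the defining Ncr1 was under 0.1 in every T-ALL library. The part of these cells in the Il2rb levels was not tested.

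Chromosome 15, which holds Il7r and Il2rb, was itself shifted in the tumors. The median difference of its genes from the thymus mean, relative to the other autosomes, was -0.04 to 0.02 for thymus, -0.08 to 0.48 for WT T-ALL (median 0.40) and 0.24 to 0.43 for Notch3 KO T-ALL. It was near 0 in tumors 5, 36 and 48, where Il7r was at 5.83, 4.15 and 4.49 and Il2rb at 3.57, 4.05 and 4.74. Tumor 5 thus lay above the thymus range of Il7r and tumors 36 and 48 within it, and for Il2rb tumor 48 lay above the thymus range and the other two within it. The part of this shift in the levels of Il7r and Il2rb was not tested.

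Il2rg, the common gamma chain (gene 16186, chrX:101264385-101268255), is deleted in the hosts and was present in every spleen. Its lowest, median and highest levels were 7.31, 7.35 and 7.74 in thymus and 5.96, 6.55 and 7.29 in WT T-ALL, and the Notch3 KO T-ALL libraries were at 6.85, 6.33 and 6.42. All 14 WT T-ALL and all 3 Notch3 KO T-ALL lay below the lowest thymus library, and 15.1% and 42.3% of all genes tested also showed no overlap in these comparisons. In scaled RPKM the means were 172 ± 21.1 (SD, n = 6), 96.1 ± 27.8 (SD, n = 14) and 93.0 ± 18.8 (SD, n = 3). The differences from thymus were -0.88 (SE 0.17, limma adjusted p = 1.65e-04) and -0.89 (SE 0.24, limma adjusted p = 0.00619). The T-ALL groups differed by -0.01 (95% interval -0.52 to 0.49). Tumors 48 and 5 were highest, with 155 and 141 scaled RPKM, close to the lowest thymus library at 158. The labels do not say which part of the allele the hosts lack, so the share of this RNA that comes from host cells cannot be told apart.

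Jak1, the kinase bound to Il7r and Il2rb (gene 16451), was lower in WT T-ALL than in thymus. Its lowest, median and highest levels were 6.35, 6.94 and 7.05 in thymus and 5.07, 6.05 and 6.53 in WT T-ALL, with the lowest value in tumor 3, and 12 of 14 tumors lay below all thymus libraries. The difference was -0.82 (SE 0.18, limma adjusted p = 7.88e-04). The Notch3 KO T-ALL libraries were at 5.92, 6.91 and 6.02, and their difference from thymus was -0.52 (95% interval -1.07 to 0.03, limma adjusted p = 0.128), which passed the threshold after quantile normalization (-0.77, adjusted p = 0.0336) and without Notch3 KO T-ALL 2 (-0.84, adjusted p = 0.0259). Jak3, the kinase bound to Il2rg (gene 16453), had means of 3.24 ± 0.37 (SD, n = 6), 3.40 ± 0.46 (SD, n = 14) and 3.09 ± 0.51 (SD, n = 3). Its differences from thymus were 0.16 (95% interval -0.27 to 0.59) in WT T-ALL and -0.16 (95% interval -0.78 to 0.47) in Notch3 KO T-ALL, neither called.

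Stat5b (gene 20851, chr11:100780731-100859004) was lower in every T-ALL library than in any thymus library. Of all genes tested, 15.1% in WT T-ALL and 42.3% in Notch3 KO T-ALL also did not overlap thymus. The lowest, median and highest Stat5b levels were 6.18, 6.31 and 6.44 in thymus and 4.76, 5.27 and 5.86 in WT T-ALL. The Notch3 KO T-ALL libraries were at 5.15, 5.32 and 5.20. In scaled RPKM, 78.0 ± 4.77 (SD, n = 6) in thymus stood against 39.7 ± 10.1 (SD, n = 14) and 36.4 ± 2.22 (SD, n = 3). The differences were -0.99 (SE 0.14, limma adjusted p = 6.62e-06) and -1.08 (SE 0.21, limma adjusted p = 3.56e-04). Its neighbor and paralog Stat5a (gene 20850, chr11:100859351-100885169) had means of 5.09 ± 0.12 (SD, n = 6), 5.10 ± 0.45 (SD, n = 14) and 5.04 ± 0.20 (SD, n = 3), with differences from thymus of 0.01 (95% interval -0.36 to 0.38) and -0.05 (95% interval -0.58 to 0.49).

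The balance of both STAT5 genes within a library is hardly touched by the scaling of that library, and it was set out after these values had been seen, so it is given as a description with no test. Stat5b exceeded Stat5a by 1.08 to 1.39 in thymus, with a mean of 1.22 ± 0.12 (SD, n = 6). In WT T-ALL the same difference ran from -0.30 to 0.62, with a mean of 0.21 ± 0.29 (SD, n = 14), and in Notch3 KO T-ALL from 0.09 to 0.36, with a mean of 0.19 ± 0.15 (SD, n = 3). All 14 and all 3 lay below every thymus library. Among single genes, 15.1% and 42.3% of those tested also did not overlap thymus, and no such share was computed for differences between genes. The means differed from thymus by -1.005 in WT T-ALL and -1.03 in Notch3 KO T-ALL, and the T-ALL groups differed by -0.03. Of 100-base stretches, 6.99% of the longest Stat5a transcript and 5.18% of the longest Stat5b transcript (GENCODE M21) are identical in the other gene, and how the authors' quantification split such reads is not stated.

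**Figure D2:**
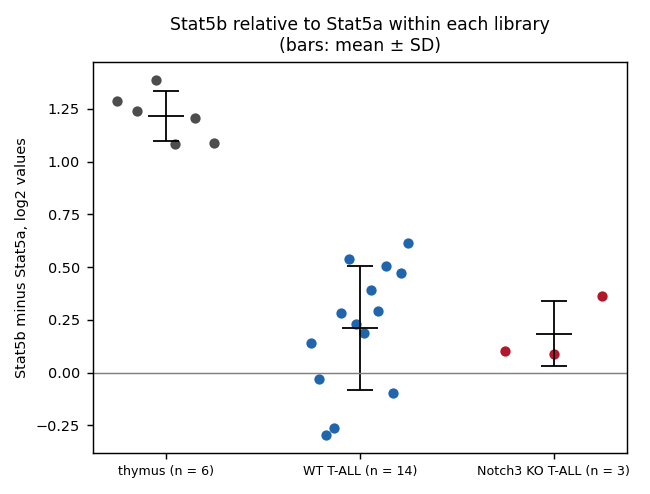
Difference of the log2 values of Stat5b and Stat5a (vertical axis) in each library of thymus (n = 6), WT T-ALL (n = 14) and Notch3 KO T-ALL (n = 3), with bars for the mean ± SD. The thymus libraries lie between 1.08 and 1.39, and all T-ALL libraries lie at or under 0.62.

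Socs1, a feedback inhibitor that binds Janus kinases (gene 12703, chr16:10783808-10785536), was lower in both T-ALL groups than in thymus. Its lowest, median and highest levels were 5.51, 6.02 and 6.78 in thymus and 2.53, 3.52 and 5.70 in WT T-ALL. The Notch3 KO T-ALL libraries were at 2.68, 3.69 and 2.41. Below all thymus libraries lay 13 of 14 WT T-ALL, the exception being tumor 7, and 3 of 3 Notch3 KO T-ALL. In Notch3 KO T-ALL 42.3% of all genes tested also did not overlap thymus. In scaled RPKM the means were 72.1 ± 26.2 (SD, n = 6) in thymus, 14.9 ± 12.2 (SD, n = 14) in WT T-ALL and 7.20 ± 4.10 (SD, n = 3) in Notch3 KO T-ALL. The differences were -2.39 (SE 0.34, limma adjusted p = 5.61e-06) and -3.19 (SE 0.49, limma adjusted p = 3.67e-05). The 6 double-positive thymocyte markers were lower in the same libraries, and their part in the Socs1 difference was not tested. The T-ALL groups differed by -0.80 (95% interval -1.80 to 0.20, limma adjusted p = 0.765).

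Cish, the other feedback inhibitor and a direct target of STAT5 (gene 12700, chr9:107296659-107302784), was low in thymus and uneven among the tumors. Its lowest, median and highest levels were 1.17, 1.71 and 2.05 in thymus and 0, 1.18 and 4.64 in WT T-ALL. Tumor 110 was highest, at 24.0 scaled RPKM against 2.34 ± 0.68 (SD, n = 6) in thymus, and tumor 4 was listed at 0. Above all thymus libraries lay 5 tumors (48, 108, 110, 111 and 128) and below all of them lay 7. The Notch3 KO T-ALL libraries were at 0.97, 2.58 and 3.04. The differences from thymus were -0.21 (95% interval -1.25 to 0.82) and 0.49 (95% interval -1.01 to 1.99), neither called. Without 1 library they ran from -0.45 (without tumor 110) to -0.096 and from 0.067 (without Notch3 KO T-ALL 3) to 1.10 (without Notch3 KO T-ALL 1). In the libraries of shared number alone the WT T-ALL difference was -1.37 and called (limma adjusted p = 0.0303 with a replicate block, 0.0154 without it). In Notch3 KO T-ALL the sign turned, uncalled, to -2.93 with the erythroid and -0.64 with the neutrophil covariate. Tumor 110 also had the highest mean of neutrophil markers, at 11.9. Over the 14 WT T-ALL, Cish and that mean had a Pearson r of 0.7501 (permutation p = 0.00297, 0.119 adjusted over 40 relations) and a Spearman rho of 0.727 (permutation p = 0.00446, 0.0761 adjusted), and r was 0.383 without tumors 110 and 108. With the mean of 6 macrophage markers the r was 0.679 (permutation p = 0.00731, 0.146 adjusted) and rho 0.723 (permutation p = 0.00477, 0.0761 adjusted), and r was 0.518 without tumors 36 and 110. With the neutrophil mean as a covariate the difference between WT T-ALL and thymus was -1.59 (limma adjusted p = 0.0424). The range of that mean in thymus does not overlap its range in WT T-ALL. This unplanned fit therefore extrapolates and cannot separate neutrophil content from group.

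**Figure D3:**
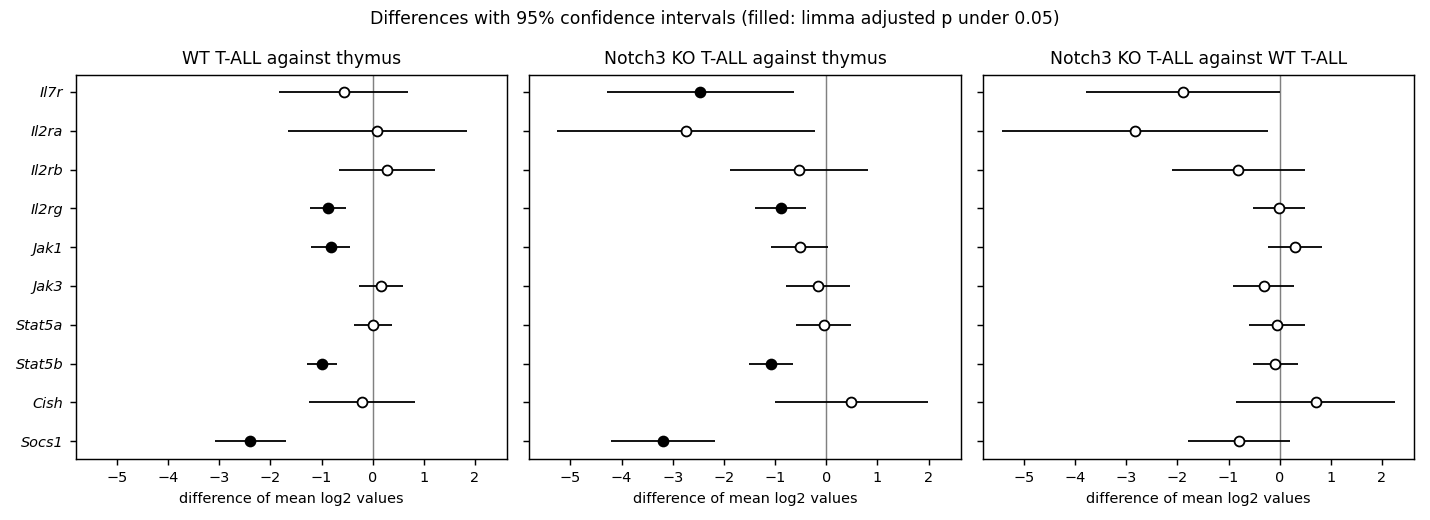
Differences of mean log2 values (horizontal axis) with 95% confidence intervals for the 10 genes in the 3 comparisons, filled where the limma adjusted p was under 0.05. Socs1, Stat5b and Il2rg are filled to the left of 0 in both comparisons with thymus, and the intervals of Il7r and Il2ra are the widest.

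From tumor to tumor, Il7r, Il2ra, Il2rb and the feedback genes varied more than Il2rg, the kinases and the STAT5 genes. Over the 14 WT T-ALL the SD of Il2ra exceeded that of 99.8% of 11677 genes, and that of Il7r 98.8%, Cish 97.5%, Il2rb 93.2% and Socs1 89.3%. The SDs of Il2rg, Jak1, Jak3, Stat5a and Stat5b lay above those of 34.0% to 60.3% of genes, near the median SD of 0.412. In thymus the SDs of the 10 genes ran from 0.0867 (Stat5b) to 0.726 (Il2rb), with a median over all genes of 0.226.

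**Figure D4:**
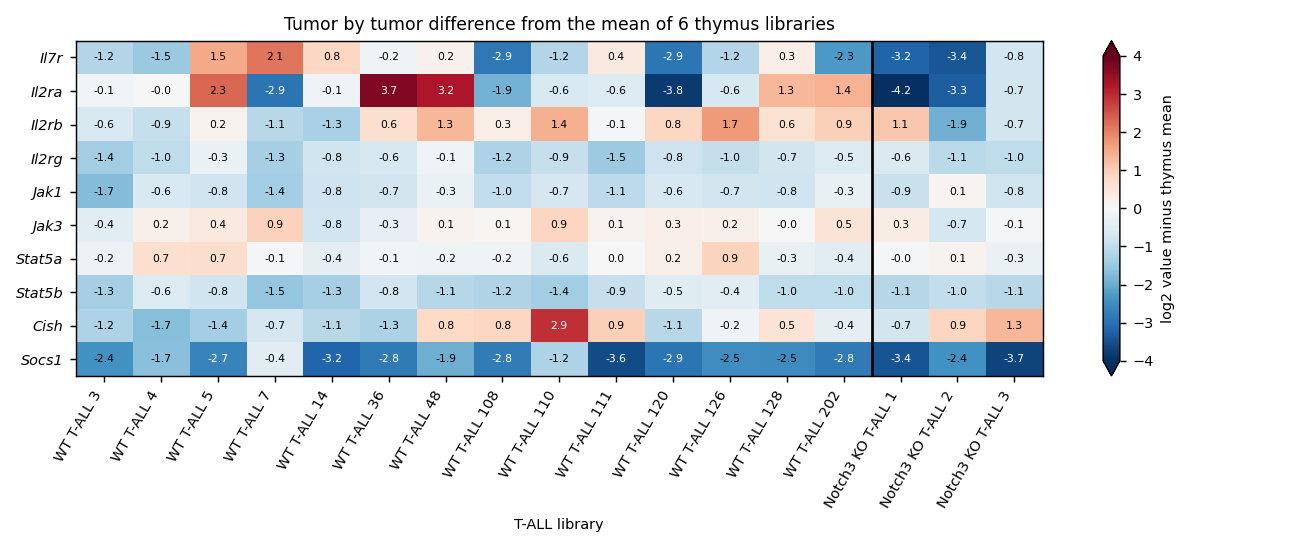
Level of each gene (rows) in each T-ALL library (columns, WT T-ALL left and Notch3 KO T-ALL right of the line) minus the mean of 6 thymus libraries, in log2 units, with the value printed in each cell. The Socs1, Stat5b and Il2rg rows are below 0 in all 17 libraries, while the Il7r, Il2ra and Cish rows hold both signs.

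Among the 45 pairs of the 10 genes, Stat5a with Stat5b and Il2rg with Jak1 had the highest correlations over the 14 WT T-ALL. Stat5a and Stat5b had a Pearson r of 0.765 (permutation p = 0.00143, 0.0403 adjusted over 45 pairs) and a Spearman rho of 0.710 (permutation p = 0.00602), with r of 0.711 after leaving out the 2 tumors farthest from the median. Il2rg and Jak1 had an r of 0.754 (permutation p = 0.00179, 0.0403 adjusted) and a rho of 0.670 (permutation p = 0.0113), with r of 0.796 after the same step. The points share the libraries and their scaling. Neither pair passed the threshold by Spearman rho after adjustment (0.169 for both). This ranking holds for all 14 tumors only. Without the 2 tumors farthest from the median, Il2ra and Il2rg had the highest r, at 0.858 against 0.677 over all 14.

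The genes most like 4 of the members over the 14 WT T-ALL were ranked by Pearson r among 11063 genes, as a description. For Il7r these were Selplg (0.860), the ligand of P-selectin, Fam195b (0.837) and Carkd (0.823). For Il2ra they were the LIM-domain cofactor Lmo4 (0.891), the T cell receptor inhibitor Cd5 (0.865) and Gnpda2 (0.854). For Socs1 they were Rgs14 (0.910), Tmem43 (0.877) and Ccdc88b (0.872). For Cish they were the chemokine Ccl6 (0.926), Dpep2 (0.911) and the decoy receptor Il1r2 (0.906), of which Ccl6 and Il1r2 are known from myeloid cells.

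Of 38 other genes of the pathway, 31 passed the filter on low levels. In WT T-ALL 3 were higher than in thymus, 18 were lower and 10 were not called; in Notch3 KO T-ALL 1 was higher, 15 were lower and 15 were not called; between the T-ALL groups 0 were called by limma. Over all genes tested 29.3% were higher and 22.3% lower in WT T-ALL, and 21.2% and 16.3% in Notch3 KO T-ALL. After rescaling to Cd3 genes 11 and 7 were called against thymus.

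The other receptor chains of this cytokine family moved in opposite directions. Il9r, the chain for interleukin-9, was at 1.04 to 1.41 in thymus and at 3.00 to 4.67 in WT T-ALL, higher in 14 of 14 tumors by 2.65 (SE 0.21, limma adjusted p = 1.43e-09), and in 3 of 3 Notch3 KO T-ALL by 2.10 (limma adjusted p = 2.09e-05). Il4ra, the chain for interleukin-4, was at 5.21 to 5.48 in thymus and at 0.78 to 4.04 in WT T-ALL, a difference of -3.69 (SE 0.31, limma adjusted p = 3.01e-09), and it differed by -3.49 in Notch3 KO T-ALL (limma adjusted p = 4.33e-06). Il21r, the chain for interleukin-21, differed by -2.10 and -1.74 and was lower in every T-ALL library than in any thymus library. Such absence of overlap, as for Il9r, Il4ra and Il21r, was seen for 15.1% of all genes tested in WT T-ALL and 42.3% in Notch3 KO T-ALL. Crlf2, which pairs with Il7r in the TSLP receptor, was lower by smaller amounts (-0.51 and -0.86), and Il15ra was higher in WT T-ALL (0.71, limma adjusted p = 0.0344) and not called in Notch3 KO T-ALL (0.04). The 7 cytokines Il2, Il4, Il7, Il9, Il15, Il21 and Tslp all failed the filter. Il7 did not exceed 0.151 in any library, and Il9 was listed at 0 in all 23.

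Of 9 genes known to respond to STAT5, 7 were lower in WT T-ALL than in thymus and 6 in Notch3 KO T-ALL, with none higher, where 22.3% and 16.3% of all genes were lower. The median differences were -1.38 and -1.26 against 0.08 over all genes. The 6 double-positive thymocyte markers were lower in the same comparisons (medians -2.94 and -3.11). Of 4 mature single-positive T cell markers, 2 were lower and 1 higher in WT T-ALL, and 3 were lower and 0 higher in Notch3 KO T-ALL (medians -1.40 and -2.43). The part of these cell types in the falls was not tested. This list, like the others, was chosen with earlier results of these data known. The erythroid covariate, which cannot be separated from group here, left 5 and 0 calls among all 31 pathway genes. The cyclin Ccnd2 differed by -3.12 (limma adjusted p = 6.07e-07) and -3.05, and the cyclin Ccnd3 by -1.53 and -1.70. The survival genes Bcl2l1, Bcl2 and Mcl1 differed by -2.06, -1.38 and -0.63 in WT T-ALL and by -1.26, -2.01 and -0.69 in Notch3 KO T-ALL. Bcl6, a transcriptional repressor that STAT5 is known to repress, differed by -2.82 (limma adjusted p = 1.40e-10) and -2.69. The counts and medians of this list include Bcl6, so they pool genes without regard to whether STAT5 raises or lowers them. Pim2 was lower in WT T-ALL (-0.61, limma adjusted p = 0.0237), its difference in Notch3 KO T-ALL was as large and not called (-0.62, limma adjusted p = 0.130), and Pim1 and Osm were called in neither.

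Of 6 other Jak and Stat genes, 4 were lower in WT T-ALL (Stat4, Jak2, Stat3 and Stat6) and 1, Stat4, in Notch3 KO T-ALL. Jak2, Stat3 and Stat6 differed there by -0.67, -0.56 and -0.45, against -0.49, -0.43 and -0.33 in WT T-ALL, with limma adjusted p-values of 0.0633, 0.0595 and 0.0507. Stat4, which acts downstream of interleukin-12, differed by -1.87 (limma adjusted p = 1.23e-04) and -2.77 (limma adjusted p = 2.00e-04). Of 6 other negative regulators, the phosphatase Ptprc was lower in both (-0.74 and -1.11), the phosphatase Ptpn2 was higher in WT T-ALL (0.46, limma adjusted p = 0.0191), and Socs2, Socs3, Ptpn6 and Sh2b3 were called in neither. Of 5 known regulators of Il7r transcription, Foxo1, Gfi1 and Ets1 were lower in both T-ALL groups (-0.75, -0.60 and -0.83 in WT T-ALL), Gabpa was lower in Notch3 KO T-ALL (-0.71) and not called in WT T-ALL (-0.24), and Runx1 was called in neither.

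**Figure D5:**
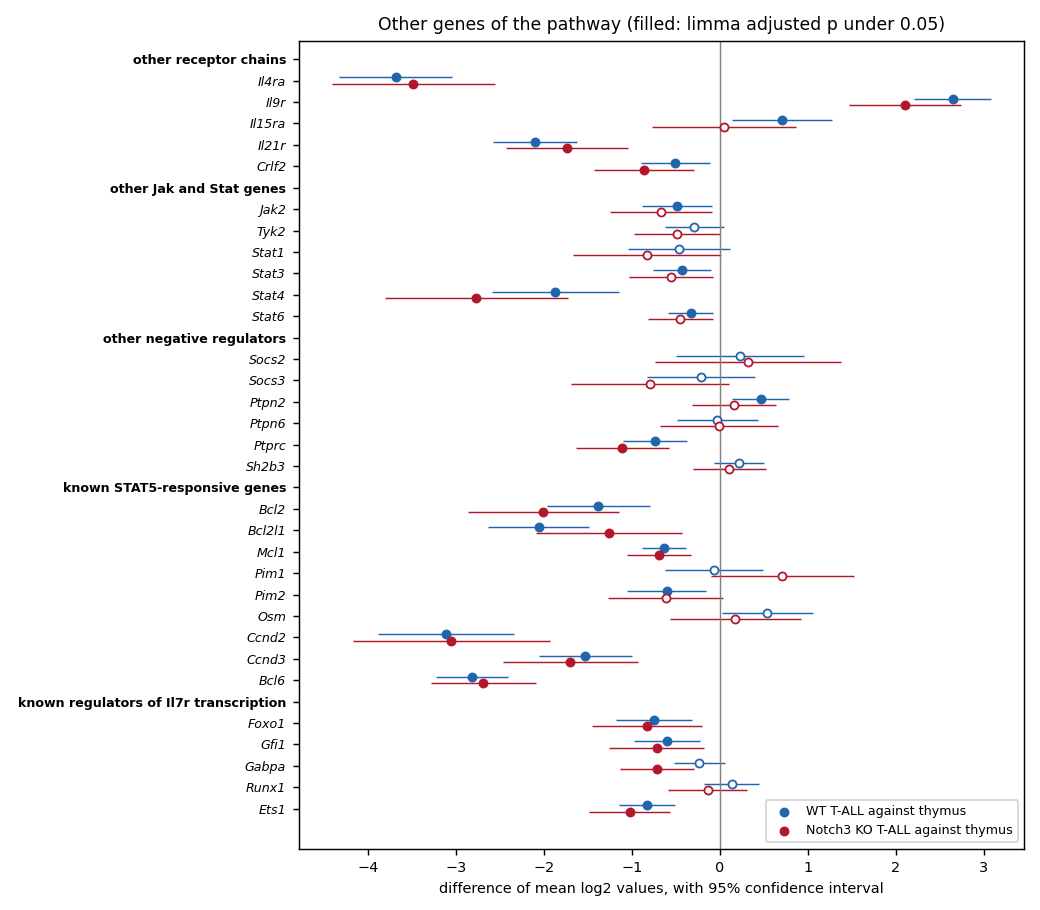
Differences from thymus of mean log2 values (horizontal axis) with 95% confidence intervals for 31 other genes of the pathway by list, in WT T-ALL (blue) and Notch3 KO T-ALL (red), filled where the limma adjusted p was under 0.05. Il9r stands at 2.65 and 2.10, and Il4ra and Ccnd2 stand furthest to the left.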

How the data were processed

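Total RNA of 6 thymus and 17 spleen samples was made into stranded mRNA libraries. By the study's methods the authors used ArrayStudio, whose OSA aligner mapped the reads to transcripts of mm10. The deposited values are log2: the 75th percentile is 3.458 to 3.459 in each library, that of log2(RPKM + 1) after the authors' scaling to 10. Whether reads were counted by strand is not given in the sources used here. Counts were not used here, and the study's methods give only an approximate depth for all libraries, so the precision of each single library is unknown.

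A gene was tested where 3 or more fitted libraries reached a scaled RPKM of 1 (11919, or 11677 in T-ALL alone) with limma 3.58.1 in R 4.3.3 (lmFit, eBayes with trend and robust), Benjamini-Hochberg over all genes, threshold 0.05. One fit of all 3 groups gave both comparisons with thymus, and the T-ALL groups were compared alone. Scripts were tested on simulated data. Exact permutation tests enumerated 38760, 84 or 680 splits (smallest p 2.58e-05, 0.0119, 0.00147). Correlations used 100000 permutations in Python 3.11.15 (scipy 1.17.1).

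All 10 members are named, other pathway genes where called or to complete a list, and for Il7r, Il2ra, Cish and Socs1 the 3 genes with the highest Pearson r (predicted genes left out). The members and lists were chosen with earlier results of these data known. Positions are RefSeq's on GRCm38.p6. Alternatives were another offset, filter, normalization and fit, marker covariates, and leaving out libraries.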

Additional observations from a re-analysis of the deposited data

How the results depend on the processing

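The labels name no batch, so the planned analysis within batches was not run. Leaving out each library in turn gave 4 to 4 members called in WT T-ALL against thymus, 3 to 4 in Notch3 KO T-ALL against thymus and 0 to 0 between the T-ALL groups, and 14 to 22, 13 to 16 and 0 to 0 other pathway genes (21, 16 and 0 with all libraries). The erythroid covariate gave 0 members and 5 pathway genes in WT T-ALL and 0 and 0 in Notch3 KO T-ALL. Its range in thymus overlaps that of neither T-ALL group, so that fit cannot separate cell mixture from group. Rescaling to Cd3 genes gave 11 pathway genes in WT T-ALL, and 1 member and 7 pathway genes in Notch3 KO T-ALL. Thymus shares replicate numbers with both T-ALL groups. Deviations of same-numbered libraries correlated by only -0.04 to 0.11, but so few pairs cannot exclude a shared batch. With a replicate block over these libraries, 8 pathway genes were called in WT T-ALL, against 10 in the same libraries without the block, and both fits lost the calls of Il2rg (-0.79) and Jak1 (-1.002) and called Cish (-1.37), with fewer libraries fitted. In Notch3 KO T-ALL against thymus, Il2ra was called with the block (-2.85, limma adjusted p = 0.0297) and without it in those libraries (0.0288). The added difference of Stat5b and Stat5a ran from -1.04 to -0.97 in WT T-ALL, from -1.12 to -0.98 in Notch3 KO T-ALL and, with both signs, from -0.11 to 0.022 between the T-ALL groups.

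Signs turned only for differences that were not called under that alternative, and the cause was not tested. In WT T-ALL against thymus, Il2ra became -0.018 with an offset of 0.1 and -0.25 without thymus controls 5 and 6; Stat5a became -0.022 after quantile normalization and -0.0006429 without those controls; Il7r became 2.36 with the erythroid covariate; Il2rb became -0.76 with the neutrophil covariate, -0.18 without those controls and -0.48 with and without the replicate block; and Jak3 became -0.020 with the neutrophil covariate. In Notch3 KO T-ALL against thymus, Cd3 rescaling gave 0.15 for Jak3 and 0.30 for Stat5a. The erythroid covariate gave 1.96 for Il7r, 1.11 for Jak3, 0.50 for Stat5a and -2.93 for Cish, and the neutrophil covariate 0.27 for Stat5a and -0.64 for Cish. Jak3 became 0.006367 with and without the replicate block. Between the T-ALL groups, Cd3 rescaling gave 0.22 for Il2rg, 0.17 for Stat5a and 0.15 for Stat5b, and the erythroid covariate 0.14 for Il2rg, 0.085 for Jak3, 0.12 for Stat5a and -0.46 for Cish. Without 1 library, values with both signs ran from -0.19 to 0.39 (Il2ra) and -0.057 to 0.056 (Stat5a) in WT T-ALL, from -1.34 to 0.17 (Il2rb), -0.38 to 0.12 (Jak3) and -0.14 to 0.054 (Stat5a) in Notch3 KO T-ALL, and from -0.17 to 0.088 (Il2rg), -0.015 to 0.48 (Jak1) and -0.15 to 0.044 (Stat5a) between the T-ALL groups.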
